A study of Mus musculus with 2 samples.

Results

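The endothelial and mural cell genes are 31 named genes of blood vessel cells, taken by symbol from the deposited table, which names 15719 genes. Of the 31, 23 are genes of endothelial cells, 6 are genes of mural cells, and the other 2 encode the angiopoietins. All 31 were found in the table, each in 1 row. RNA came from superficial zone cells, the flattened chondrocytes at the surface of articular cartilage, of C57BL/6 pups aged 5 days. Of the 2 libraries, 1 was from wild type (WT) pups and 1 from Prg4KO pups, which lack the gene for lubricin, the lubricant of the joint surface. Per the labels' protocols, both ends of the femur and the upper end of the tibia were stripped of ligament, tendon and synovium, and the cartilage was digested first with trypsin (0.25%, 1 hour) and then with type I collagenase (173 U/mL, 1.5 hours). The cells that came free were then seeded on dishes coated with fibronectin, and polyadenylated RNA was sequenced, giving 21619093 expected counts for WT and 21392574 for Prg4KO. Neither the number and sex of the mice, nor the time in culture, nor the kind of Prg4 allele is stated in the labels.

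Endothelial cells line blood vessels, and mural cells (pericytes and smooth muscle cells) wrap around them. Endothelial cells read vascular endothelial growth factor (VEGF) through receptor tyrosine kinases, are held together by VE-cadherin and claudin junctions, and are held quiet by angiopoietin signalling through the Tie receptors. Articular cartilage has no vessels of its own, and vessels run in the synovium, the perichondrium and the bone beside it. Transcripts of vessel cell genes in such a preparation are therefore taken as a read on cells other than chondrocytes. Their cell source was not tested here. Several members (Cspg4, Pdgfrb, Mcam, Eng, Ets1, Cd34, Acvrl1 and Angpt1) are also made by connective tissue, blood or cartilage cells. In bulk RNA, fewer cells of a type and less RNA per cell cannot be told apart.

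As each genotype was measured in 1 library, the differences below lack any check by replicates and hold for this pair of libraries. The Prg4KO values stood beside the wrong gene names after row 20 of the table and were re-paired with the genes by row order and effective length, a step that every Prg4KO value below rests on. All 31 members were paired, the lowest probability being 0.999. Of the 31, 26 had pairs in the same register on both sides. The effective length of the 16 members with 1 transcript differed by at most 0.381% between the libraries, and that of the 15 with several transcripts by at most 2.32%. Prg4 itself, the check of the genotype, had WT and Prg4KO FPKM of 593 and 0.10.

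Transcripts of the vessel cell genes were present in the WT library at moderate levels. FPKM, fragments per kilobase of transcript scaled to library size, is on a per-length scale and can be set side by side between genes. The 23 endothelial members had a median FPKM of 8.89, from 0.94 for Flt4 to 76.4 for Plvap, and 19 of the 23 lay above the median of 3.54 over all listed WT genes. The defining endothelial genes were all listed. Cdh5, which encodes VE-cadherin, the adhesion molecule of endothelial junctions, had an FPKM of 17.3, Pecam1, the platelet and endothelial cell adhesion molecule CD31, had 26.6, Tie1, an orphan receptor of the Tie family, had 9.10, and Kdr, the main signalling receptor for VEGF, had 5.28. For scale, the cartilage collagen gene Col2a1 had an FPKM of 14594 in the same library. The 6 mural members had a median WT FPKM of 18.5, from 1.17 for Abcc9 to 74.6 for Cspg4.

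**Figure D1:**
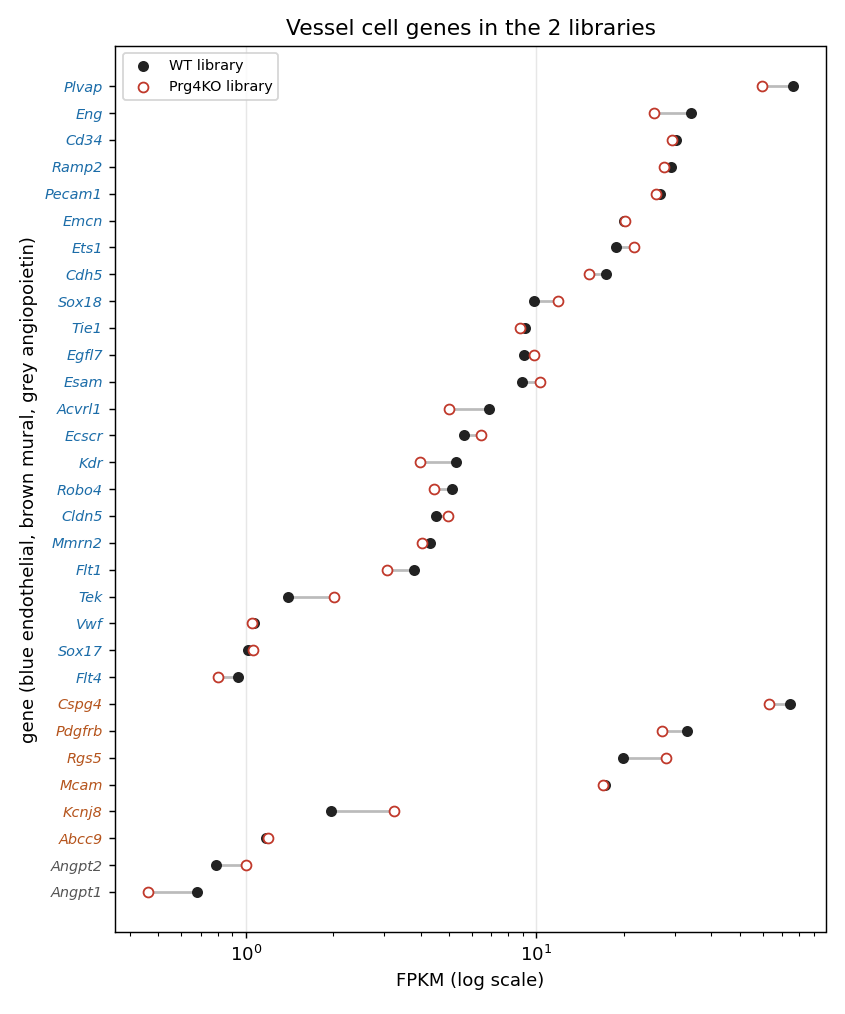
FPKM of the 31 genes in the WT library (filled) and the Prg4KO library (open), on a log scale, with a line joining the values of a gene. Plvap and Cspg4 are highest, at 76.4 and 74.6 in the WT library, and the open and filled points of most genes lie close together.

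The same genes were measured at similar levels in the Prg4KO library, and none passed the size limit. The limit is a larger FPKM of at least 5 and a change of at least 2-fold in FPKM + 1. Of the 31 members, 20 reached that FPKM, and 0 of these 20 were past 2-fold, where 0.57% of 7367 genes were (0.462% higher and 0.109% lower in the Prg4KO library). At 1.5-fold the count was again 0 of 20, beside 7.83% of genes. The member counts are no departure from these low shares. Over all genes the split depended on the scaling, with 81.0% of the genes past 2-fold higher in the Prg4KO library as deposited, 48.5% at a common median, 42.4% with TMM factors and 61.8% without the 20 most abundant genes. All ratios below are Prg4KO over WT.

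The endothelial members had a median log2 ratio of -0.04 (middle 50% of members -0.18 to 0.11), and 14 of 23 lay below 0 as deposited, beside 31.9% of the 6699 genes at FPKM 5 or more in each library. At a common median 18 of 23 lay below 0, beside 50% of these genes by construction, and after removal of a trend in transcript length and GC content 10 of 23 did, beside 28.0%. The all-gene median, over the same 6699 genes, was 0.13 (middle 50% -0.06 to 0.32). Relative to that, the endothelial median was -0.18, and 18 of 23 members lay below the all-gene median, which 50% of genes do by definition. The 18 of 23 was the same at a common median, with TMM factors and without the 20 most abundant genes. After trend removal it was 14 of 23, and the endothelial median was 0.04, or -0.09 relative to all genes. Summed over the 23 genes, WT and Prg4KO counts were 19151 and 17327.

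**Figure D2:**
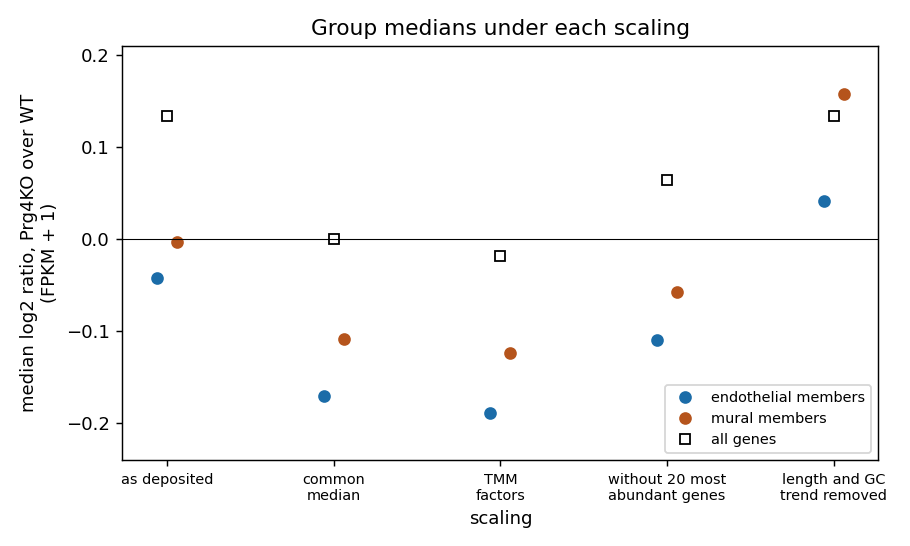
Median log2 ratio (Prg4KO over WT, FPKM + 1) of the endothelial members, the mural members and all genes at FPKM 5 or more in each library, under 5 scalings. The endothelial median lies below the all-gene median under each, by 0.18 as deposited and by 0.09 after removal of the length and GC trend.

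Counting error was small for most members. A count ratio is the count per library total, with an exact 95% interval that covers counting error only. The interval left out 1 for 14 of the 31 members, 6 above and 8 below, beside 61.4% of the 11139 genes with a WT count of at least 50 (45% above and 16.3% below). All 31 members had such a WT count, the lowest being 61 for Angpt2. All intervals here are on library totals and were not recomputed under other scalings. A common median multiplies the Prg4KO FPKM by 0.905 and TMM factors by 0.893. Bounds near 1, such as the lower bound of Esam and the upper bounds of Pecam1, Robo4 and Angpt1, would then fall below 1. Across the 5 scalings (as deposited, the 3 rescalings and trend removal), 8 members kept a log2 ratio above 0, 11 kept one below 0, and 12 changed sign. The all-gene median itself ran from -0.02 to 0.13 over these scalings. No share of all genes stands beside these sign counts, so they describe the members only and show no departure from other genes.

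**Figure D3:**
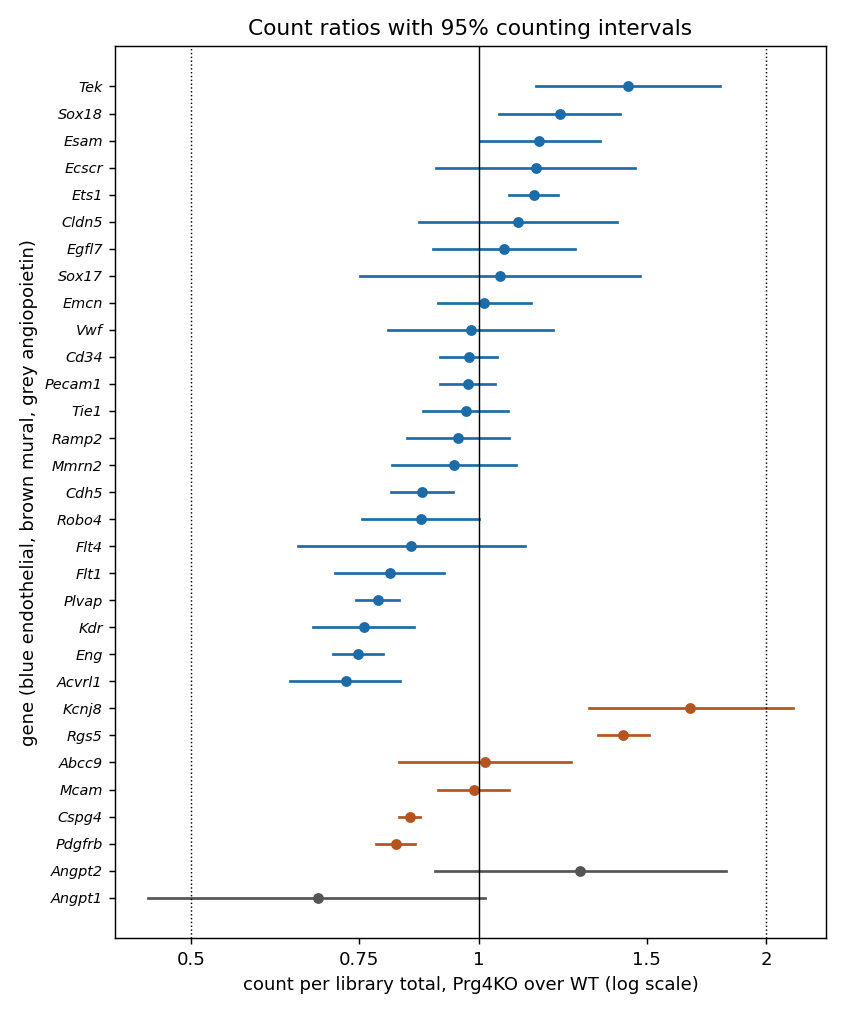
Count per library total, Prg4KO over WT, for each of the 31 genes, with exact 95% intervals for counting error and dotted lines at 0.5 and 2. The points run from 0.679 for Angpt1 to 1.67 for Kcnj8, and the intervals of Angpt1 and Kcnj8 are the ones that reach past a dotted line.

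Among the receptors, 7 of 8 had a log2 ratio below 0 as deposited, and Tek was the exception. Of the genes at FPKM 5 or more in each library, 31.9% lay below 0. After trend removal 5 of 8 receptors lay below 0, beside 28.0% of these genes. Eng, which encodes endoglin, a co-receptor for TGF-beta and BMP ligands, lies on chromosome 2 (32646595 to 32682669 in GRCm38). It had WT and Prg4KO counts of 2541 and 1882, at FPKM 34.0 and 25.4 (count ratio 0.748, 0.705 to 0.795). Its partner Acvrl1, the type I receptor ALK1 for BMP ligands of the circulation, had 539 and 387 counts, at FPKM 6.88 and 5.02 (0.726, 0.635 to 0.828). Both were lower in the Prg4KO library by more than counting error, and their log2 ratios of -0.41 and -0.39 were -0.20 and -0.19 after removal of the length and GC trend.

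The VEGF receptors had similar ratios to each other. Kdr had WT and Prg4KO counts of 629 and 472, at FPKM 5.28 and 3.99 (count ratio 0.758, 0.672 to 0.856). Flt1, a VEGF receptor that acts largely as a decoy, had 518 and 414 counts, at FPKM 3.78 and 3.05 (0.808, 0.708 to 0.921). Flt4, the VEGF-C receptor of lymphatic endothelium, had only 120 and 101 counts, and its interval of 0.646 to 1.12 took in 1. The log2 ratios of Kdr and Flt1 were below 0 under all 5 scalings, while that of Flt4 was above 0 after trend removal.

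Of the Tie receptors, Tie1 was nearly level as deposited (log2 ratio -0.17 at a common median) and Tek was higher in the Prg4KO library. Tie1 had WT and Prg4KO counts of 769 and 738, at FPKM 9.10 and 8.81 (count ratio 0.970, 0.875 to 1.07). Trend removal took its log2 ratio from -0.04 to 0.20. Tek, the angiopoietin receptor, had 141 and 200 counts, at FPKM 1.40 and 2.01 (1.43, 1.15 to 1.79). Ramp2, a partner protein of the adrenomedullin receptor, had 531 and 500 counts, at FPKM 28.9 and 27.5 (0.952, 0.840 to 1.08). Of these genes, Tek alone had an interval that left out 1.

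Of the 9 surface and junction genes, 5 had a log2 ratio below 0 and 4 above as deposited. Of the genes at FPKM 5 or more in each library, 31.9% lay below 0. At a common median 7 of the 9 lay below 0, beside 50% of these genes by construction. Plvap, which forms the diaphragms of fenestrated and small vessels, is on chromosome 8 (71497753 to 71511806) and had the highest endothelial level. It had WT and Prg4KO counts of 3351 and 2600, at FPKM 76.4 and 59.8 (count ratio 0.784, 0.745 to 0.826). Cdh5 (chromosome 8, 104101613 to 104144504) had 1510 and 1305 counts, at FPKM 17.3 and 15.1 (0.873, 0.810 to 0.941). Plvap and Cdh5 were lower in the Prg4KO library by more than counting error, and their log2 ratios of -0.35 and -0.19 were -0.21 and -0.07 after trend removal.

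The other abundant surface genes were nearly level between the libraries as deposited. Pecam1 had WT and Prg4KO counts of 1833 and 1767, at FPKM 26.6 and 25.7 (count ratio 0.974, 0.912 to 1.04). Cd34, a sialomucin of endothelial and progenitor cells, had 1655 and 1599 counts, at FPKM 30.1 and 29.3 (0.976, 0.911 to 1.05). Emcn, which encodes endomucin, a sialomucin of capillaries and veins, had 630 and 632 counts, at FPKM 19.96 and 20.2 (1.01, 0.906 to 1.13). On library totals, the intervals of Pecam1, Cd34 and Emcn took in 1. At a common median their log2 ratios were -0.18, -0.18 and -0.12.

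Esam, an immunoglobulin-type adhesion molecule of endothelial cells and platelets, had 356 and 408 counts, at FPKM 8.89 and 10.3 (count ratio 1.16, 1.00 to 1.34, the lower bound just above 1). Ecscr, an endothelial surface protein, had 133 and 151 counts, at FPKM 5.64 and 6.46 (1.15, 0.903 to 1.46). Cldn5, the claudin of endothelial tight junctions, had an FPKM of 4.51 and 4.95, and Robo4, an endothelial roundabout receptor, had 5.11 and 4.44. The intervals of Ecscr, Cldn5 and Robo4 took in 1, that of Robo4 (0.755 to 1.00) with an upper bound just above 1. The log2 ratio of Robo4 was -0.17 as deposited, -0.28 at a common median and 0.04 after trend removal.

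On library totals, the secreted proteins showed no difference beyond counting error. Egfl7, an endothelial matrix protein, had WT and Prg4KO counts of 268 and 282, at FPKM 9.03 and 9.81 (count ratio 1.06, 0.896 to 1.26). Its log2 ratio of 0.11 was -0.02 at a common median. Vwf, which encodes von Willebrand factor, the clotting protein stored by endothelial cells and platelets, had 207 and 201 counts at FPKM 1.07 and 1.05. Mmrn2, a multimerin of the endothelial matrix, had an FPKM of 4.31 and 4.05 (count ratio 0.942, 0.811 to 1.09). Its log2 ratio was -0.07 as deposited, -0.19 at a common median and 0.07 after trend removal.

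The 3 transcription factors among the members had count ratios above 1. This was common, as 31.9% of the 6699 genes at FPKM 5 or more in each library had a log2 ratio below 0. Relative to the all-gene median, the log2 ratios of Sox18, Ets1 and Sox17 were 0.12, 0.06 and -0.11. Transcription factors among the further endothelial genes below went both ways, such as Erg at 1.28 (1.16 to 1.42) and Fli1 at 0.846 (0.718 to 0.997). Sox18, which drives early endothelial and lymphatic fate, had WT and Prg4KO counts of 340 and 409, at FPKM 9.78 and 11.9 (count ratio 1.22, 1.05 to 1.41). Ets1, a founding member of the ETS factors that is also made by lymphocytes and connective tissue cells, had 2072 and 2341 counts, at FPKM 18.9 and 21.6 (1.14, 1.08 to 1.21). Sox17, an arterial factor of the same family as Sox18, had 72 and 75 counts at FPKM 1.02 and 1.06 (count ratio 1.05, 0.752 to 1.48). The log2 ratios of Sox18 and Ets1 (0.26 and 0.19) were above 0 under all 5 scalings, and that of Sox17 was below 0 at a common median.

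The 6 mural members did not go 1 way. Rgs5, a regulator of G protein signalling that marks pericytes, lies on chromosome 1 (169655501 to 169695813). It had WT and Prg4KO counts of 1759 and 2467, at FPKM 19.8 and 28.0 (count ratio 1.42, 1.33 to 1.51). Kcnj8 encodes the pore subunit of the ATP-sensitive potassium channel of pericytes. It had 108 and 178 counts, at FPKM 1.96 and 3.24 (1.67, 1.30 to 2.14). The log2 ratios of Rgs5 and Kcnj8, 0.48 and 0.52, were the highest of the 31 members as deposited and stayed above 0 under all 5 scalings. With pairing without the model (closing section), Rgs5 kept its value but Kcnj8 had -1.08, so the direction of Kcnj8 rests on the pairing.

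Abcc9, the sulfonylurea receptor subunit of the same channel as Kcnj8, was not higher, with 187 and 188 counts at FPKM 1.17 and 1.19 (count ratio 1.02, 0.825 to 1.25). Mcam, the adhesion molecule CD146 of mural and endothelial cells, had 1077 and 1053 counts, at FPKM 17.2 and 16.9 (0.988, 0.907 to 1.08). Cspg4, the proteoglycan NG2, also made by chondrocytes and other progenitors, had 13126 and 11007 counts, at FPKM 74.6 and 63.1 (0.847, 0.826 to 0.869). Pdgfrb, the receptor by which mural cells answer platelet-derived growth factor, also made by fibroblasts, had 3903 and 3162 counts, at FPKM 33.1 and 27.0 (0.819, 0.781 to 0.858).

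The mural median was -0.0026 (log2 ratio, 6 genes), or -0.14 relative to all genes. Without Cspg4 and Pdgfrb, an exclusion chosen after the values had been seen, the median of the remaining 4 genes was 0.25, or 0.11 relative to all genes. The log2 ratio of Cspg4, the second longest of the members, was -0.24 as deposited and 0.21 after removal of the length and GC trend, and that of Pdgfrb was -0.28 and -0.03. The angiopoietins were low in both libraries. Angpt1, the Tek agonist made by mural and connective tissue cells, had 64 and 43 counts (0.679, 0.450 to 1.01), and Angpt2, the context-dependent antagonist made by endothelial cells, had 61 and 77 (1.28, 0.900 to 1.82). On library totals both intervals took in 1, so neither differed by more than counting error there. The log2 ratio of Angpt1 was -0.20 as deposited and -0.25 at a common median, and was below 0 under all 5 scalings. That of Angpt2 was above 0 under all 5.

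Further vessel genes also had small ratios for the most part. Of 38 further endothelial genes, all were listed, 14 reached an FPKM of 5, 1 was past 2-fold and higher, and the list median was 0.04, or -0.09 relative to all genes. The gene past the limit was Procr, the endothelial protein C receptor, which other cells also make, with WT and Prg4KO counts of 353 and 769, at FPKM 11.0 and 24.1 (log2 ratio 1.07). It was not past the limit at a common median (0.93), with TMM factors (0.91), without the 20 most abundant genes (1.00, just under) or after trend removal (1.00, just under). Aplnr, the apelin receptor, had an FPKM of 3.58 and 6.18 (0.65). At the other end, Ephb4, a venous ephrin receptor, had 23.7 and 18.3 (-0.36), and Gja4, an arterial connexin, had 3.64 and 2.67 (-0.34). Lymphatic genes were low, with Lyve1 at 1.98 and 2.20 and Prox1 at 0.16 and 0.08 from 14 and 7 counts.

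Of 24 further mural and smooth muscle genes, 12 reached an FPKM of 5, 0 were past 2-fold, and the list median was 0.03. Ndufa4l2, a mitochondrial protein abundant in pericytes and in low oxygen, had the highest level, with WT and Prg4KO FPKM of 234 and 208. Acta2, smooth muscle actin, had 33.0 and 21.9 (log2 ratio -0.57), and Anpep, a surface peptidase, had 8.08 and 5.77 (-0.42). Art3, an ecto-enzyme family member, had 2.99 and 6.05 (0.82), and Cnn1, smooth muscle calponin, had 0.82 and 1.25 (0.31) from 35 and 53 counts. Higd1b, a pericyte marker, had only 4 and 6 counts, while Myh11, the smooth muscle myosin, had 103 in each library.

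The ligands and partners of the vascular receptors were listed for 35 of 36 genes, with 20 at an FPKM of 5 and 0 past 2-fold, and their median was -0.03. Vegfa, the ligand of Kdr and Flt1, had WT and Prg4KO FPKM of 34.5 and 43.1 (log2 ratio 0.31). Of the VEGF co-receptors, Nrp1 had 8.10 and 11.8 (0.49) and Nrp2 had 13.8 and 9.66 (-0.47). The highest was Angptl2, a secreted angiopoietin-like protein, with 207 and 156 (-0.41). Bmp4 had 11.5 and 16.3 (0.47) and Slit3, a secreted guidance protein of the Slit family, 5.80 and 3.45 (-0.61). The signs of these 6 genes were the same under all 5 scalings. Gdf2 was not listed in the WT library.

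Of 11 proteins of cartilage and joint that restrain vessel growth, 9 had an FPKM of at least 5, and 0 of these were past 2-fold. The other 2 were Sema3a, at WT and Prg4KO FPKM of 1.50 and 1.58, and Col4a3, at 0.05 and 0.06. The median log2 ratio of the 11 was -0.03. Cnmd, chondromodulin, had WT and Prg4KO FPKM of 1028 and 1508 (log2 ratio 0.55), and Timp3, an inhibitor of metalloproteinases that also blocks VEGF binding, had 60.5 and 76.0 (0.32). Thbs2, a thrombospondin, had 115 and 75.5 (-0.59), and Timp2 had 404 and 302 (-0.42). Sparc, a collagen-binding matrix protein, had the highest level, at 9229 and 8417 (-0.13).

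Markers of other cell types are given here for comparison. The blood lists had medians above 0, as had all genes (0.13). Relative to all genes, the medians were 0.59 for red cell, 0.14 for leukocyte and 0.04 for platelet and megakaryocyte genes. Red cell genes had a median log2 ratio of 0.72 over 7 genes (summed WT and Prg4KO FPKM of 1648 and 2675), with Hba-a1 and Hba-a2, near-identical globin genes whose reads may have been split between them, at 725 and 1233 and at 338 and 465. The beta globin gene Hbb-bt had 69.5 and 115. Alas2, the haem synthesis enzyme of red cells, had the highest ratio, with 2.26 and 5.40 (0.97). Leukocyte genes had a median of 0.28 over 8 genes (summed 76.7 and 96.4), with Cd68 of macrophages at 21.1 and 25.6, Cd52 at 0.92 and 2.60 and Lyz2 from 302 and 444 counts. At the low end, Coro1a had 1.96 and 1.87 and Laptm5 13.6 and 14.0.

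Platelet and megakaryocyte genes had a median of 0.18 over 6 paired genes of 8, with Pf4 at 15.4 and 24.2 and Gp1bb, which overlaps a neighbouring gene, at 9.31 and 14.9. The defining platelet genes Ppbp, Gp1ba and Gp9 were near 0, at 9, 6 and 1 counts in the WT library, and Gp6 was not listed there. Pecam1, Vwf and Esam are also made by platelets and Ets1 and Cd34 by blood or progenitor cells, and the part of blood cells in the values of these members was not tested.

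Chondrocyte genes had a median of 0.60 over 8 genes, with Matn3 at 168 and 377, Hapln1 at 268 and 452, Col2a1 at 14594 and 15702 and Acan at 527 and 436. Fibroblast genes had a median of -0.18 over 8 genes, with Lum at 168 and 222, Dcn at 386 and 396, Col1a2 at 5838 and 3869 and Col1a1 at 11470 and 5593. The medians of all 5 of these lists kept their sign at a common median, with TMM factors and after trend removal. The endothelial median of -0.04 lay between those of the fibroblast and chondrocyte lists. With 1 library per genotype, the spread of such medians between cultures is unknown.

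**Figure D4:**
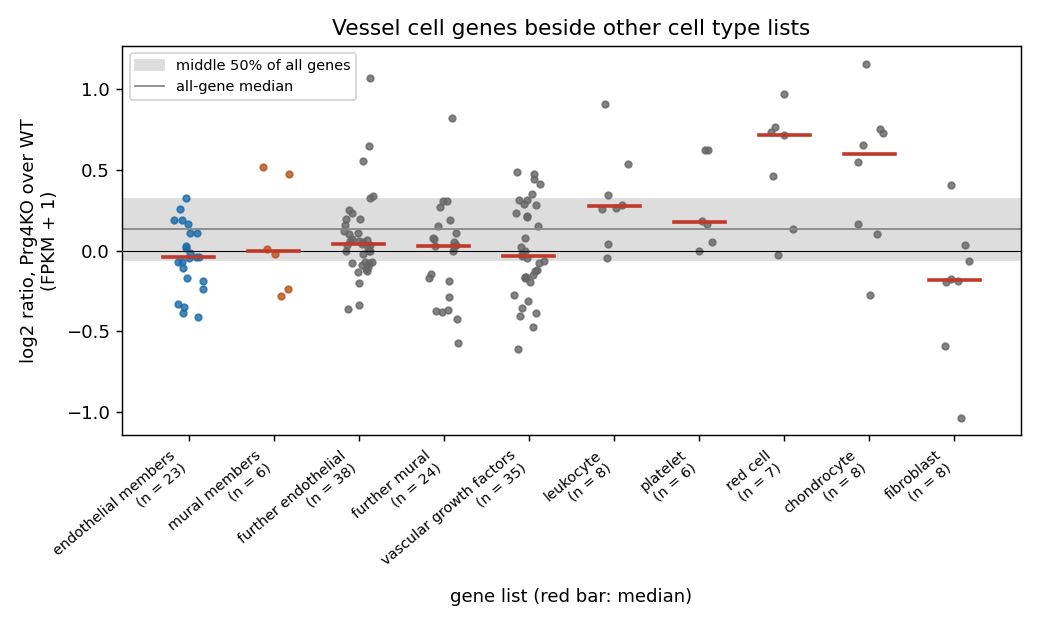
Log2 ratio (Prg4KO over WT, FPKM + 1) of each gene in the vessel cell lists and in lists of other cell types, with the list median as a red bar, the all-gene median of 0.13 as a grey line and the middle 50% of genes shaded. The endothelial and mural bars lie just below 0, the red cell bar at 0.72 and the chondrocyte bar at 0.60.

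Transcript properties moved with the ratios. Across the 23 endothelial members, the log2 ratio had a Spearman rho of -0.31 with transcript length and of -0.16 with GC content, and across 6678 genes it had -0.31 and -0.35. The members share their libraries, and these values are descriptions across genes. Vwf, the longest member at 8834 bases, had a log2 ratio of -0.01 that was 0.40 after trend removal, the largest shift upwards among the endothelial members.

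Promoter windows from RefSeq (GRCm38.p6, 250 bases before to 50 after a gene's start) matched 16 of the 31 members, in 18 windows. ETS factors such as Ets1 bind DNA around the letters GGAA, which stood on either strand in 17 of the 18 windows and in 96.0% of 32851 windows of all genes. In all, 8 words were counted on both strands, with no test. The longer CAGGAA, which contains GGAA, stood in 11 of 18 windows and in 30.6% of all. Of the words that overlap it, ACAGGAA stood in 4 windows (8.67% of all) and CAGGAAG in 5 (13.3%). CCGGAA, another word holding GGAA, stood in 1 (14.9%). ATTGTT stood in 2 windows (10.7% of all), TATAAA in 1 (13.6%) and TGACTCA in 0 (5.20%). Shown are 2 endothelial genes whose levels were nearly equal in the libraries as deposited and a pericyte gene that was higher in the Prg4KO library. They are Tie1 (chr4:118489800-118490099, minus strand), Emcn (chr3:137340828-137341127, plus strand) and Rgs5 (chr1:169655251-169655550, plus strand). Each is printed 5′ to 3′ with GGAA or its reverse complement TTCC in capitals.
Tie1: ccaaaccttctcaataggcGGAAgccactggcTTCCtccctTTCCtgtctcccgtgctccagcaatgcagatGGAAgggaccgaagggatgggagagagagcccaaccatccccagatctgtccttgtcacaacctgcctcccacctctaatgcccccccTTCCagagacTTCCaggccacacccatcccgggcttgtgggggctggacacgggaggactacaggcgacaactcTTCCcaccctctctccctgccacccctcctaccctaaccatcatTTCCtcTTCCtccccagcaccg
Emcn: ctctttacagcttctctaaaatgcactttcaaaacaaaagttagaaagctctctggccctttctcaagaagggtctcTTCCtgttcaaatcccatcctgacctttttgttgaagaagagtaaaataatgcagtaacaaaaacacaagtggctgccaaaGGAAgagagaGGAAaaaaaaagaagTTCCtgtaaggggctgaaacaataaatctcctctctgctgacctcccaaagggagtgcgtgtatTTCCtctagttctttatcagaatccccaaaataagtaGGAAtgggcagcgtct
Rgs5: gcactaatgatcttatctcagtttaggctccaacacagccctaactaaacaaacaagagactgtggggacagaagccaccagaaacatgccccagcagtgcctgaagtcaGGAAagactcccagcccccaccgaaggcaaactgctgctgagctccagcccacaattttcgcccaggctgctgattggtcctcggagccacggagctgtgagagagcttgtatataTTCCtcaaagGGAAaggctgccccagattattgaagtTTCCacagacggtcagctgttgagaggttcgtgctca
The windows held 9, 6 and 4 matches in this order, beside a median of 4 over the member windows and of 3 over all windows. Tie1 and Emcn had the most matches of the member windows, and Cldn5 had 0. A match describes the letters and is not a bound site.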

How the data were processed

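The authors deposited 1 table with, per the file headers, an expected count and an FPKM for each gene in each library. Per the submitters' processing notes, HISAT2, Bowtie2, RSEM and mm10 were used, with no version, role, strand setting or annotation named in the labels. Genes at 0 were left out of the deposited table, and 0 columns belonged to other samples. FPKM as deposited by the authors is scaled by effective transcript length, here the deposited length minus 36.5 bases, and library size.

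The table held 15973 pairs of Prg4KO values for 15719 named genes. As deposited, the correlation of log2(FPKM + 1) across rows was 0.981 for the first 20 and 0.0904 for the rest. A pair hidden Markov model over gene order (gene numbers sorted as text) and effective length re-paired 15037 genes (95.7%) at a probability of at least 0.95, and the correlation was then 0.991. The chance that a gene lacked a partner was set to 0.002, with 0.4 added as its count neared 0. The pairing code was also run on simulated rows built on assumptions like those of the model. Such a run checks the code and cannot show that the deposited rows were paired rightly.

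Log2 ratios are of FPKM with a pseudocount of 1, which understates changes of low genes. Intervals are exact (Clopper-Pearson) at 95%, cover counting error only and treat expected counts as counts. No test between genotypes was possible. TMM factors came from edgeR 4.0.16 on expected counts rounded to whole numbers. GC content came from GENCODE M21 transcripts matched by RefSeq accession (99.4% of genes, all 31 members), and a cubic trend in length and GC held 27.0% of the variance of log2 ratios. Scripts used Python 3.11.15, scipy 1.17.1 and numba 0.67.0. Members, lists, role groups and the form of the trend were chosen with earlier results of these data known, and the 2 sets of members left out (in the closing section) after their values were seen. All 31 members are named, with full values for the 18 with a mean FPKM of at least 5 and for others the text turns on. Of each other list, the 2 highest and 2 lowest ratios at a mean FPKM of at least 1 and the highest level are named, and further genes were named after their values were seen.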

Additional observations from a re-analysis of the deposited data

How the results depend on the processing

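The count of 0 members past the limit held under 11 of the 12 alternatives. The exception was pairing without the model, by nearest effective length between anchors, which gave 1 (Pecam1 paired with a low row), gave the same Prg4KO FPKM for 27 of the 31 members and for 83.7% of all paired genes, and called 863 genes against 42. Besides Pecam1, the log2 ratio changed for Cldn5 (0.11 to -2.3), Robo4 (-0.17 to 0.62) and Kcnj8 (0.52 to -1.08), each with a change of sign. Over all genes the count was 22 after trend removal, 65 at a pseudocount of 0.1 and 577 at 1.5-fold. The median log2 ratio of all 31 members ran from -0.18 with TMM factors to 0.07 after trend removal, and that of the endothelial members from -0.19 to 0.04, so the sign of both depends on the scaling. All of these moves were smaller than the counting interval of the median member, a lenient yardstick for a median that was set in this re-analysis. The mural median was -0.12 with TMM factors, 0.16 after trend removal, -0.13 with pairing without the model, and 0.25 without Cspg4 and Pdgfrb. Of the mural members, Kcnj8 alone had another value with pairing without the model. Cspg4 and Pdgfrb had the lowest mural log2 ratios as deposited (-0.24 and -0.28). For the shifts with TMM factors and after trend removal, the cause was not tested. With counts scaled to 1000000 per library in place of FPKM, the endothelial median in the WT library was 24.0, beside 10.9 over all genes. Of 162 single ratios recomputed for the 18 members given in full, 130 moved by less than their counting interval. Filters on low values do not enter a single ratio. No paired analysis was possible because each genotype had 1 library, and no library could be left out. Depth limits the low members most, and the count interval of Angpt1, for example, ran from 0.450 to 1.01.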
